A study of Mus musculus with 8 samples.

Results

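The major urinary protein (Mup) genes were followed in liver RNA of WT and HRD1Alb mice. The set held 15 of the 23337 gene symbols in the files. Mup1, Mup2, Mup3, Mup4, Mup5, Mup7, Mup20 and Mup21 were listed by symbol, and Mup6, Mup8, Mup11, Mup12, Mup13, Mup14 and Mup15 were added. The added genes were selected on their measured values, 100 or more counts summed over the 8 libraries, so their abundance is a description and not a result. Among the added genes Mup15 lay just inside that limit with 106 summed counts, and Mup10 lay just outside with 14. Of the listed genes, Mup4 (72 summed counts) and Mup2 (3 summed counts) were under it. The genotype results of these data were known when the list was drawn up, so the genotype differences below are a description of the members and not independent evidence.

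Total hepatic RNA was sequenced from C57BL/6 mice of 12 weeks. HRD1Alb mice carry floxed HRD1 alleles and Cre recombinase under the albumin promoter, which is active in hepatocytes, and HRD1 is the ubiquitin ligase of the endoplasmic reticulum that the files list as Syvn1. The libraries of the controls are labelled WT, and the study describes the controls of this cross as HRD1 f/f mice without the Alb-Cre transgene. For both genotypes, livers were collected from fasted mice (overnight) and from mice refed for 4 h, with 2 libraries in each of the 4 groups. Nothing in the labels gives the sex of these mice, and whether a library came from a single mouse or a pool is not given in the sources used here, so p-values measure the spread between these libraries.

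The libraries held between 40210576 and 49117080 counts, and 14328 genes passed the filter on low counts. Levels are given as CPM (counts scaled to a common library size) after TMM scaling, on which 3 counts correspond to 0.0508 to 0.0788 CPM. Syvn1, the targeted gene, was at 111 and 99.8 CPM in fasted WT and at 32.6 and 31.5 CPM in fasted HRD1Alb liver. After refeeding it was at 637 and 305 CPM in WT and at 453 and 132 CPM in HRD1Alb liver. The library labelled refed HRD1Alb replicate 1 therefore stood above refed WT replicate 2 for the targeted gene, and these counts cover the whole gene rather than the floxed exons. Replicates of the refed HRD1Alb group differed by 2-fold or more in 3204 tested genes, against 424 to 1141 genes in the other groups. The counts of called genes and the summed refed ratio are therefore also given without each of the libraries labelled refed HRD1Alb. The hepatocyte markers Alb, Ttr, Apoa1 and Apob were abundant in all 8 libraries, with Alb at 47746 to 110870 CPM. Transcripts of the Y-linked genes Ddx3y, Eif2s3y, Kdm5d and Uty were present in all 8 libraries (Ddx3y at 55.2 to 121 CPM), and Xist stayed between 0.0988 and 0.508 CPM.

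Major urinary proteins are small secreted lipocalins, made mainly by hepatocytes, that bind pheromones and other small hydrophobic molecules and leave the body in the urine. Their transcription in liver is known to depend on growth hormone acting through its receptor, JAK2 and STAT5B, and is stronger in males, where growth hormone is released in pulses. MUP20, also called darcin, is itself a male signal that attracts females.

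All 15 genes lie in a single cluster on chromosome 4. In GENCODE M21 on GRCm38 (mm10) the cluster ran over 2.19 Mb (chr4:59956804-62150863) and held 22 protein-coding Mup genes, and 26 Mup pseudogenes were annotated on the chromosome. Mup7 lies at chr4:60066469-60070475, Mup14 at chr4:61300023-61304000, Mup20 at chr4:62050234-62054158, Mup3 at chr4:62083476-62087342 and Mup21 at chr4:62147932-62150863, all on the minus strand. The members fell into a pair of sequence classes. The 9 central genes (Mup1, Mup2, Mup7, Mup8, Mup11, Mup12, Mup13, Mup14 and Mup15) shared 98.52% to 99.81% of their aligned coding bases. The 6 peripheral genes (Mup3, Mup4, Mup5, Mup6, Mup20 and Mup21) shared 85.61% to 96.32% with each other and 85.98% to 91.34% with the central genes.

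A stretch of 60 coding bases, bases 132 to 191 of the coding sequence of Mup7, is shown. Of the gap-free stretches compared, it had the most differences from Mup7 summed over the members. It is therefore not typical of the whole coding sequence, where Mup3 differed from Mup7 at 75 of 535 aligned bases. Capitals mark bases that differ from Mup7. In this stretch Mup2, Mup11, Mup12 and Mup15 read as Mup1 does, Mup8 reads as Mup14 does, and Mup21 reads as Mup3 does.
Mup7: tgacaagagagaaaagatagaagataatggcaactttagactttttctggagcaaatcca
Mup1: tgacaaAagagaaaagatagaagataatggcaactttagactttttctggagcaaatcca
Mup14: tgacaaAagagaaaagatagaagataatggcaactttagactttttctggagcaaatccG
Mup13: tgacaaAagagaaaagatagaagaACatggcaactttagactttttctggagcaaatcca
Mup20: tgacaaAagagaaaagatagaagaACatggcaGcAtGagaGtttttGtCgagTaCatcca
Mup4: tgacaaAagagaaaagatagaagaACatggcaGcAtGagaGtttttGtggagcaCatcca
Mup3: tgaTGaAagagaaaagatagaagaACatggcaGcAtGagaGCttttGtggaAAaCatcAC

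The central genes differed from Mup7 at 1 to 3 of these bases, Mup4 at 9, Mup20 at 11, and Mup3 and Mup21 at 16. This bears on every value of a central gene, because reads from near-identical copies may be split, assigned to another copy or left uncounted, and how such reads were treated is not given in the sources used here. Windows of 75 bases that occurred in no other annotated Mup gene or pseudogene made up 94.6% of the transcript windows of Mup3, 89.7% of Mup21 and 56.4% of Mup20. They made up 42.2% of Mup1 and 18.9% of Mup7, 11.5% of Mup13 and 0% of Mup15. Values of single central genes are therefore uncertain, and their sum is given beside them.

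**Figure D1:**
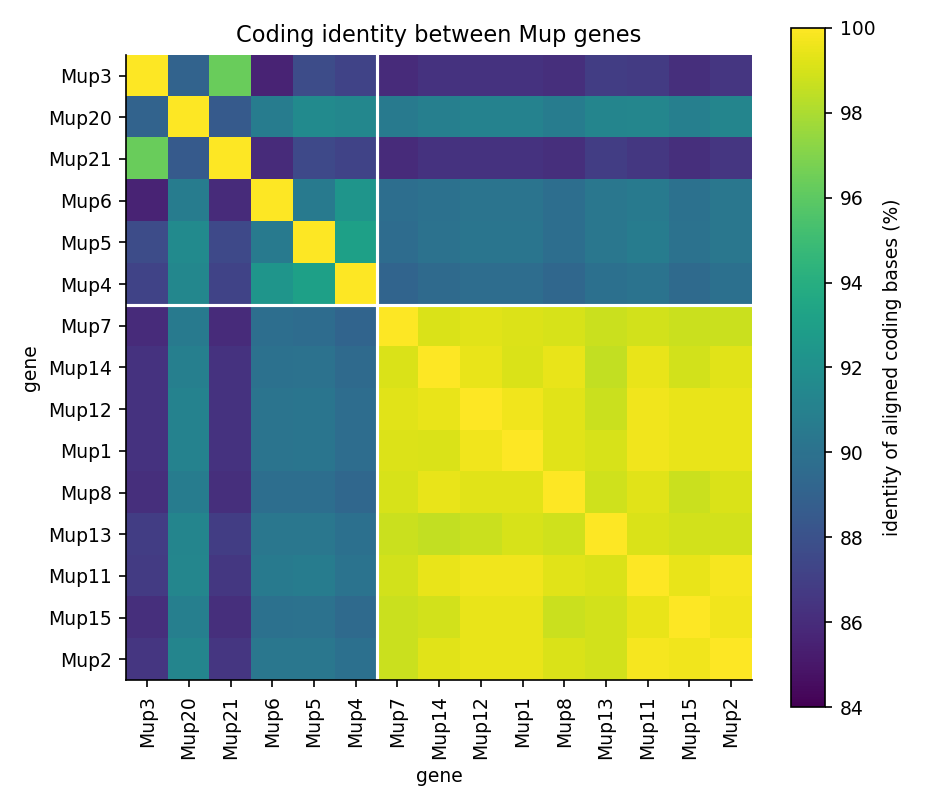
Percent of identical aligned coding bases between each pair of the 15 Mup genes (rows and columns), with white lines between the peripheral and the central genes. The 9 central genes form a block at 98.52% to 99.81%, and Mup3 and Mup21 form the closest peripheral pair at 96.32%.

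In fasted WT liver the family summed to 15041 and 11161 CPM in the 2 libraries, and in fasted HRD1Alb liver to 752 and 1468 CPM. After refeeding the sums were 12153 and 8619 CPM in WT and 533 and 2920 CPM in HRD1Alb liver. Every HRD1Alb library thus lay below every WT library. The mean log2 ratio of HRD1Alb to WT was -3.62 in fasted and -3.04 in refed liver, with a pooled SD of 0.96 between replicates on the log2 scale. Without the library labelled refed HRD1Alb replicate 1 the refed ratio was -1.82, and without replicate 2 it was -4.27. As a share of all counts, the family took 1.32% and 0.934% in fasted WT and 0.0833% and 0.165% in fasted HRD1Alb libraries. In bulk RNA, fewer cells of a type and less RNA per cell cannot be told apart.

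Compared per kilobase of annotated exon, Mup3 was the most abundant member in every group. It stood at 9374 ± 1067 CPM per kb (SD, n = 2) in fasted WT liver, above Mup20 (1477 ± 226) and Mup7 (1196 ± 1488), which overlapped each other. Mup21 (337 ± 53.1 CPM per kb) overlapped Mup7 but lay above Mup14 (132 ± 124), which in turn overlapped Mup12 (33.4 ± 31.2). Mup1 followed at 19.3 ± 21.2 CPM per kb, overlapping both Mup12 and the next gene, Mup5 (4.08 ± 2.05), and Mup6 stood at 3.92 ± 1.97 CPM per kb. The other 6 genes had means between 0.00933 and 1.16 CPM per kb, the lowest for Mup2. In fasted HRD1Alb liver Mup3 (680 ± 365 CPM per kb) and Mup20 (399 ± 117) overlapped, and no other member had a mean above 5.03 CPM per kb, the value of Mup21. The order was alike after refeeding, with Mup3 at 7844 ± 880 and Mup20 at 1047 ± 655 CPM per kb in WT, and with Mup3 at 1111 ± 1153 and Mup20 at 568 ± 482 CPM per kb, again overlapping, in HRD1Alb liver.

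**Figure D2:**
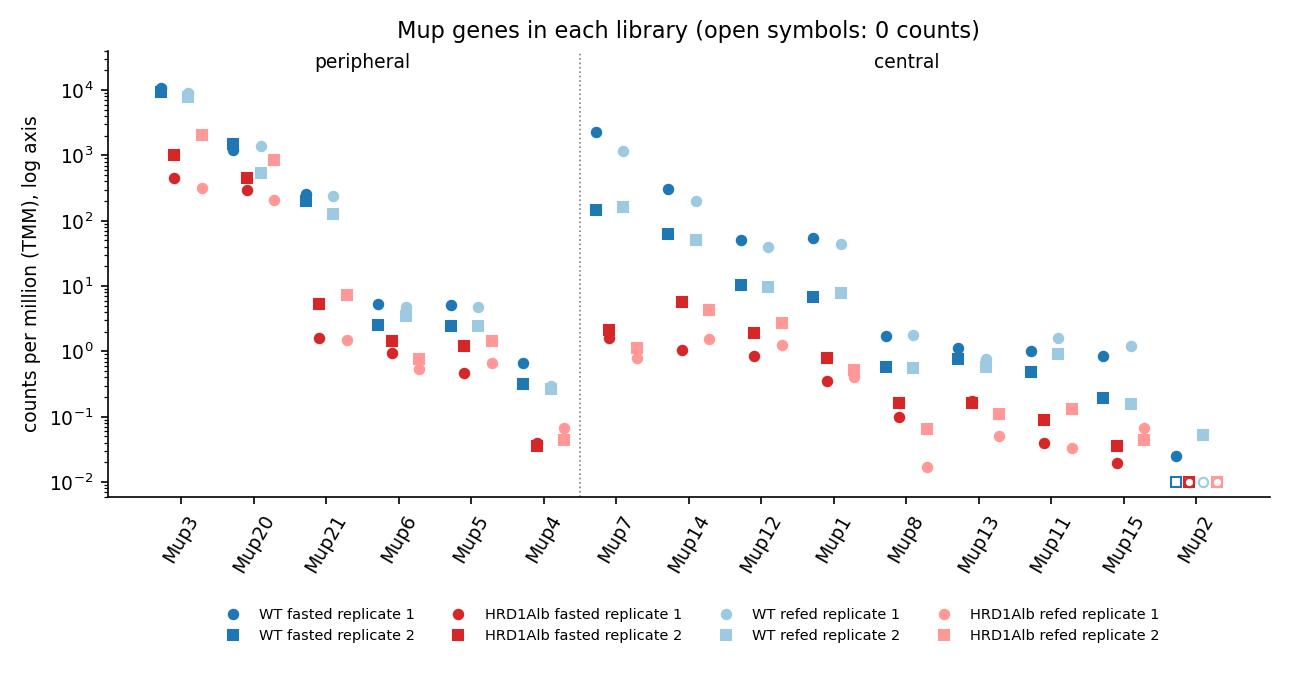
TMM-scaled CPM (log axis) of the 15 Mup genes in each of the 8 libraries. Colour gives the group, circles are replicate 1, squares are replicate 2, and open symbols stand for 0 counts. Mup3 runs from 316 to 2058 in HRD1Alb and from 7713 to 10817 in WT libraries, while Mup20 overlaps between the genotypes after refeeding.

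The peripheral genes Mup3, Mup20 and Mup21 carried most of the family's counts. Mup3 was at 10817 and 9205 CPM in fasted WT, at 451 and 1002 CPM in fasted HRD1Alb, at 9043 and 7713 CPM in refed WT, and at 316 and 2058 CPM in refed HRD1Alb liver. The WT and HRD1Alb libraries did not overlap in either state, and the lowest WT value was above the highest HRD1Alb value. The log2 fold change of HRD1Alb against WT was -3.78 (SE 0.83) in fasted liver, with an adjusted p = 0.0767 by edgeR's quasi-likelihood test. It was -2.82 (SE 0.80, adjusted p = 0.0610 in the same test) in refed liver, so Mup3 passed the threshold of 0.05 in neither state in this fit. The refed call depended on the method: the adjusted p was 0.00043 with DESeq2 and 0.038 both with limma-trend and with no filter on low counts in edgeR. In edgeR it was 0.0492 with the replicate number as a block, but 0.0631 with RLE scaling and 0.0651 with at least 10 counts in every library. With only the refed samples it was 0.184 (edgeR). Without the library labelled refed HRD1Alb replicate 1 the refed log2 fold change was -2.03, and without replicate 2 it was -4.73. Without refed WT replicates 1 and 2 it was -2.70 and -2.94. In fasted liver the adjusted p was 1.6e-06 with DESeq2, 0.0395 with no filter and 0.0118 with only the fasted samples (edgeR). It was 0.0626 with limma-trend. In edgeR it was 0.0785 with RLE scaling, 0.0752 with the replicate block and 0.0813 with at least 10 counts in every library. With 1 library left out the fasted log2 fold change ran from -4.48 to -3.32.

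Mup20 was at 1223 and 1519 CPM in fasted WT, at 294 and 447 CPM in fasted HRD1Alb, at 1402 and 542 CPM in refed WT, and at 211 and 843 CPM in refed HRD1Alb liver. Its fasted groups were apart, and its refed groups overlapped because refed HRD1Alb replicate 2 lay above refed WT replicate 2. The log2 fold change was -1.89 (SE 0.68, adjusted p = 0.198, edgeR) in fasted and -0.88 (SE 0.66, adjusted p = 0.361, edgeR) in refed liver. The refed value moved to -0.04 without refed WT replicate 1 and to -1.42 without refed WT replicate 2. It was -0.21 without refed HRD1Alb replicate 1 and -2.21 without replicate 2. In fasted liver Mup20 passed with DESeq2 (adjusted p = 0.0271) and with only the fasted samples (adjusted p = 0.0131, edgeR). It did not pass with limma-trend (adjusted p = 0.193). Nor did it pass in edgeR with no filter on low counts (0.168), with RLE scaling (0.199) or with the replicate number as a block (0.215). With 1 library left out its fasted log2 fold change ran from -2.22 to -1.62.

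Mup21 was at 254 and 203 CPM in fasted WT and at 1.58 and 5.23 CPM in fasted HRD1Alb liver. It was at 236 and 127 CPM in refed WT and at 1.47 and 7.25 CPM in refed HRD1Alb liver. Every HRD1Alb library lay far below the lowest WT library. The log2 fold change was -6.06 (SE 0.92) in fasted and -5.39 (SE 0.89) in refed liver. Mup21 was already known in these data as a gene of extreme fold change, and its values are given with no p.

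Among the low peripheral genes, Mup5 was at 5.11 and 2.43 CPM in fasted WT and at 0.469 and 1.22 CPM in fasted HRD1Alb liver, and Mup6 at 5.31 and 2.53 against 0.958 and 1.43 CPM. After refeeding Mup5 was at 4.81 and 2.47 CPM in WT and 0.660 and 1.47 CPM in HRD1Alb liver. Mup6 was at 4.77 and 3.54 CPM in refed WT and 0.542 and 0.767 CPM in refed HRD1Alb liver. Both genes were lower in every HRD1Alb library than in every WT library. Only the refed difference of Mup6, with a log2 fold change of -2.67 (SE 0.45, adjusted p = 0.0181, edgeR), passed the test among these 2 genes, and it did not without refed WT replicate 1 or 2 (adjusted p = 0.122 and 0.109, edgeR). Mup4 had 27 and 13 counts in fasted WT and 2 in each fasted HRD1Alb library, then 12 and 10 counts in refed WT and 4 and 2 in refed HRD1Alb libraries. The WT level was 13.1 times that of HRD1Alb in fasted liver, with a 95% interval of 4.73 to 50.3 from counting error alone. After refeeding the ratio was 4.89, with an interval of 1.92 to 14.7. Mup4 entered the fit only through its WT counts, so no p is given for its genotype difference.

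The central genes summed to 2736 and 229 CPM in fasted WT and to 4.20 and 10.9 CPM in fasted HRD1Alb liver. The refed sums were 1463 and 231 CPM in WT and 4.16 and 9.07 CPM in HRD1Alb liver. Both HRD1Alb libraries of each state lay far below the lower WT library, and the libraries within a group differed by more than 2-fold in all 4 groups. The mean log2 ratio of the central sum was -6.87 in fasted and -6.56 in refed liver, against a pooled replicate SD of 1.70 on the log2 scale. For the peripheral sum the ratios were -3.47 and -2.93, with a pooled SD of 0.94. The difference between the classes was not tested.

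Mup7, the most abundant central gene, was at 2322 and 148 CPM in fasted WT, 1.60 and 2.11 CPM in fasted HRD1Alb, 1175 and 160 CPM in refed WT, and 0.796 and 1.12 CPM in refed HRD1Alb liver. In raw reads this was 93120 and 6088 counts in fasted WT against 82 and 116 in fasted HRD1Alb libraries. The log2 fold change was -9.38 (SE 1.70) in fasted and -9.45 (SE 1.72) in refed liver, given with no p because this gene too was known for its extreme fold change. Mup14 was at 304 and 61.6 CPM in fasted WT and 1.06 and 5.70 CPM in fasted HRD1Alb liver, and at 199 and 51.1 against 1.56 and 4.34 CPM after refeeding. Its groups did not overlap in either state, with log2 fold changes of -5.75 (SE 1.25, adjusted p = 0.0733, edgeR) in fasted and -5.41 (SE 1.23, adjusted p = 0.0364, edgeR) in refed liver. Mup1 was at 54.3 and 6.86 CPM in fasted WT and 0.352 and 0.781 CPM in fasted HRD1Alb liver, and at 44.7 and 7.85 against 0.406 and 0.526 CPM after refeeding. Its log2 fold change was -5.74 (SE 1.26, adjusted p = 0.0765, edgeR) in fasted and -5.82 (SE 1.28, adjusted p = 0.0333, edgeR) in refed liver. The refed calls of Mup1 and Mup14 were lost without either refed WT library and without either fasted HRD1Alb library (adjusted p from 0.0607 to 0.178, edgeR), that of Mup1 also without refed HRD1Alb replicate 2 (0.0559) and that of Mup14 also without fasted WT replicate 2 (0.0501). Mup12 was at 51.4 and 10.5 CPM in fasted WT, 0.860 and 1.89 CPM in fasted HRD1Alb, 39.5 and 9.77 CPM in refed WT and 1.24 and 2.74 CPM in refed HRD1Alb liver, and passed in neither state (adjusted p = 0.0817 and 0.0526, edgeR).

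The remaining central genes rested on few reads. Mup8 had 68 and 24 counts in fasted WT, 5 and 9 in fasted HRD1Alb, 73 and 21 in refed WT, and 1 and 3 in refed HRD1Alb libraries. Mup11 had 41 and 20, 2 and 5, 64 and 35, and 2 and 6 counts in the same order of groups, and Mup13 had 46 and 31, 9 and 9, 31 and 22, and 3 and 5 counts. Mup15 had 34 and 8, 1 and 2, 49 and 6, and 4 and 2 counts, and has no window of its own. In refed liver the WT level was 31.3 times that of HRD1Alb for Mup8, with a counting interval of 11.8 to 117. It was 16.5 times for Mup11, with an interval of 8.05 to 39.2, and 8.83 times for Mup13, with an interval of 4.17 to 21.5. For Mup15 it was 12.2 times, with an interval of 5.27 to 34.7. These 4 genes entered the fit only through their WT counts, so their genotype differences are given with counting intervals and no p. Mup2 had 1 count in fasted WT replicate 1 and 2 counts in refed WT replicate 2 and none in the other libraries, and was not tested.

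Of the 15 genes, 14 passed the filter on low counts, and 9 had at least 10 counts in every library. Mup4, Mup8, Mup11, Mup13 and Mup15 passed the filter only through the WT libraries, where they were higher, and Mup7 and Mup21 were known for their fold changes. Counts over the 14 genes are therefore a description beside the background share, and nothing is read from them. In fasted liver Mup4 and Mup21 were lower in HRD1Alb at an adjusted p under 0.05, 2 of the 14 tested genes, while 0.433% of all tested genes were lower by that rule. With the fit limited to genes with at least 10 counts in every library, 1 of 9 members (Mup21) was called. With a log2 fold change of -1 or less and an unadjusted p under 0.05, all 14 tested genes were lower, against 1.51% of all tested genes. In all 14 both HRD1Alb libraries lay below both WT libraries, as they did in 34.2% of all tested genes. The median log2 fold change of the 14 genes was -3.70, and that of all tested genes was -0.02. The number of members called was 0 when either fasted WT, either fasted HRD1Alb or either refed WT library was left out, and 13 when either of the libraries labelled refed HRD1Alb was left out. Over all tested genes 0% to 0.156% were called in either direction in the fits with 0 members and 21.7% and 21.3% in the fits with 13, against 1.35% with all 8 libraries.

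In refed liver Mup1, Mup6, Mup7, Mup8, Mup11, Mup13, Mup14 and Mup21 were lower in HRD1Alb, 8 of the 14 tested genes, against 4.84% of all tested genes. Among these, Mup8, Mup11 and Mup13 passed the filter only through the WT libraries, and Mup7 and Mup21 were known for their fold changes. This count too is a description, and nothing is read from it. With at least 10 counts in every library, 5 of 9 members were called (Mup1, Mup6, Mup7, Mup14 and Mup21). By the 2-fold rule with an unadjusted p under 0.05, 13 members were lower, against 4.83% of all tested genes. In 13 members, all but Mup20, both HRD1Alb libraries lay below both WT libraries, against 30.1% of all tested genes. The median log2 fold change was -3.59, and that of all tested genes was 0.04. Without the library labelled refed HRD1Alb replicate 1 the count was 10, and without replicate 2 it was 9, Mup20 among them, while 52.8% and 23.7% of all tested genes were called in these fits, against 11.9% with all 8 libraries. It was 2 (Mup6 and Mup21) without either fasted HRD1Alb library, with 2.83% and 2.91% of all tested genes called, and 0 without either refed WT library, with 0.0068% and 0.0136% called. An exact permutation test of 2 libraries against 2 cannot give a p below 0.333, so these calls rest on the spread shared across genes.

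**Figure D3:**
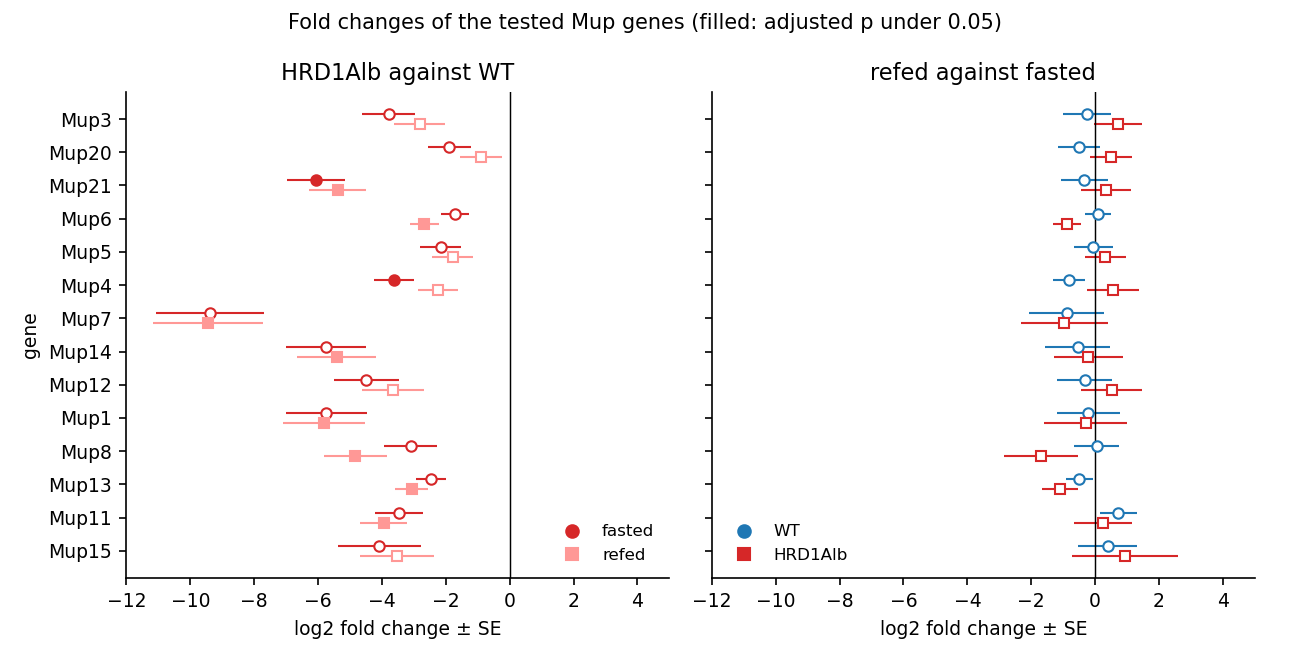
Fitted log2 fold changes (points) with their SE (bars) for the 14 tested Mup genes, for HRD1Alb against WT on the left and refed against fasted on the right. Filled symbols have an adjusted p under 0.05 and, for genes that entered through their WT counts or were known for their fold change, are a description only. All points on the left lie below 0, from -9.45 to -0.88, and the points on the right lie between -1.69 and 0.95 with none filled.

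The feeding state was then compared within each genotype. In WT liver no member was called by edgeR after refeeding, none of the 14 reached an unadjusted p of 0.05, and 2.61% of all tested genes were called in either direction. The log2 fold changes ran from -0.89 for Mup7 (SE 1.18) to 0.73 for Mup11 (SE 0.58), with a median of -0.29. Mup3 was at 10011 ± 1140 CPM fasted and 8378 ± 940 CPM refed (SD, n = 2), a log2 fold change of -0.26 (SE 0.75). In HRD1Alb liver no member was called either, again with none under an unadjusted p of 0.05, while 10.5% of all tested genes were called. The log2 fold changes there ran from -1.69 for Mup8, on 4 refed counts, to 0.95 for Mup15, on 6 refed counts, with a median of 0.28. Without the library labelled refed HRD1Alb replicate 1, Mup3 was higher in the single refed HRD1Alb library left, with a log2 fold change of 1.50 (adjusted p = 0.0160, edgeR). In that fit 51.4% of all tested genes were called, so 1 of 14 members is below the share over all genes. DESeq2 and limma-trend called no member in either genotype.

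The interaction asked whether the genotype difference changed with feeding. No member was called, none had an unadjusted p under 0.05, and 0% of all tested genes were called. The interaction ran from -1.74 for Mup8 (SE 1.34) to 1.38 for Mup4 (SE 0.96) on the log2 scale. With standard errors of 0.61 to 1.81, a change of several fold in the genotype difference could not have been detected. Without the library labelled refed HRD1Alb replicate 1, the interaction of Mup3 was 1.76 (adjusted p = 0.0382, edgeR), no other member was called, and 33.4% of all tested genes were called, a share above that of the members. DESeq2 and limma-trend called none.

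The make-up of the family's counts also differed between libraries. Mup3 took 71.9% and 82.5% of the Mup counts in fasted WT and 59.9% and 68.3% in fasted HRD1Alb libraries. After refeeding its share was 74.4% and 89.5% in WT and 59.2% and 70.5% in HRD1Alb libraries. Mup20 took 8.13% and 13.6% in fasted WT, 11.5% and 6.29% in refed WT, 39.1% and 30.4% in fasted HRD1Alb and 39.5% and 28.9% in refed HRD1Alb libraries. The Mup20 share was thus higher in each HRD1Alb than in each WT library. The central genes took 18.2% and 2.05% in fasted WT and 12.0% and 2.68% in refed WT, but 0.559% and 0.745% in fasted and 0.781% and 0.311% in refed HRD1Alb libraries. The exact 95% binomial intervals, which cover counting error only, were narrow beside these gaps: the central share ran from 2.01% to 2.09% in fasted WT replicate 2 and from 0.687% to 0.806% in fasted HRD1Alb replicate 2.

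**Figure D4:**
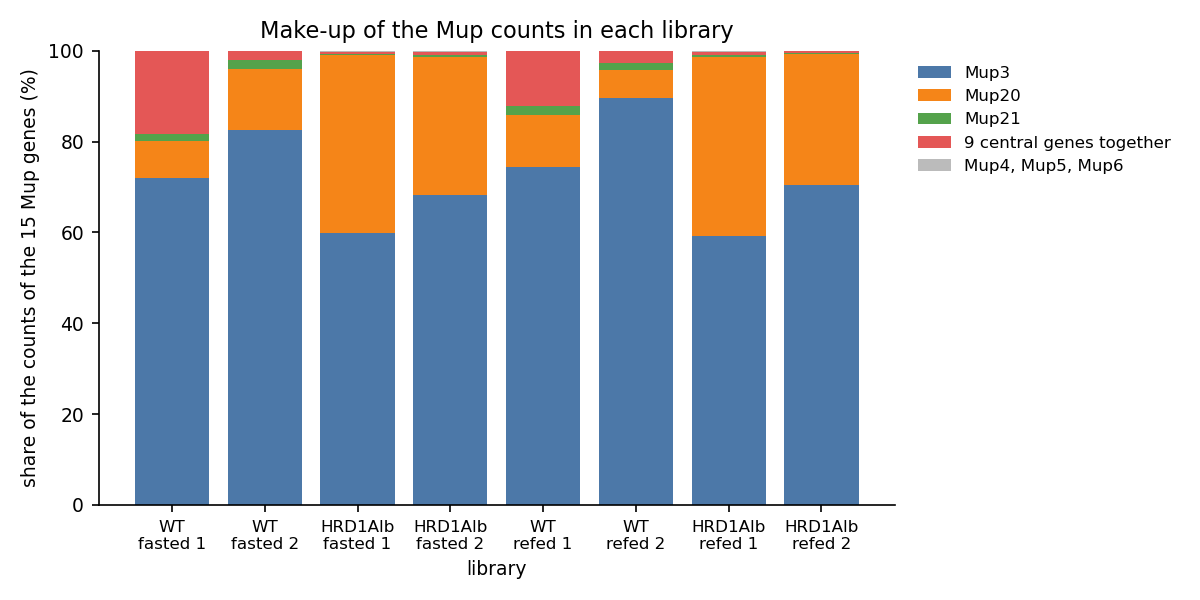
Share of the counts of the 15 Mup genes taken by Mup3, Mup20, Mup21, the 9 central genes together, and Mup4, Mup5 and Mup6 together, with a bar for each library. Mup20 takes 6.29% to 13.6% in the WT and 28.9% to 39.5% in the HRD1Alb libraries, and the central share is largest in replicate 1 of both WT groups (18.2% and 12.0%).

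The WT libraries were not alike for the central genes. In fasted WT, replicate 1 was above replicate 2 by 15.7-fold for Mup7, 7.89-fold for Mup1, 4.93-fold for Mup14 and 4.87-fold for Mup12. In refed WT, replicate 1 was again above replicate 2, by 7.34-fold for Mup7, 5.68-fold for Mup1, 3.88-fold for Mup14 and 4.04-fold for Mup12. The fasted and refed libraries share only a replicate number in the labels. The ratio was 2-fold or more in both states for 6 of the 8 tested central genes and for 0 of the 6 tested peripheral genes, against 0.537% of all tested genes. These central genes share 57.8% to 100% of their 75-base windows with other Mup genes or pseudogenes. Their values may share reads and are not separate observations. Of the peripheral genes, 5 of 6 were also higher in replicate 1 in both states, as were 4079 of all 14328 tested genes. The peripheral folds were smaller, with median log2 ratios of 0.68 and 0.66 against 0.00 over all tested genes. Mup5 had ratios of 2.09 and 1.94, Mup3 had 1.18 and 1.17, and Mup20 was the exception with 0.805 in fasted WT. Genes known as male-biased in liver followed in part, with 4 of 20 at 2-fold or more in both states, among them Cyp7b1, an oxysterol hydroxylase, at 337 and 45.4 CPM in fasted WT and at 315 and 96.5 CPM in refed WT. Of 19 tested genes known as female-biased that had more than 3 counts in the higher WT library of each state, 5 went the other way by 2-fold or more in both states, against 0.633% of all tested genes above that floor. Cyp2b9, a cytochrome P450, was at 0.698 and 21.8 CPM in fasted WT and at 0.444 and 11.8 CPM in refed WT. In the HRD1Alb groups the median log2 ratio of the central genes was -0.76 fasted and -0.997 refed, that is, replicate 2 was the higher library. What sets the WT libraries apart was not tested.

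**Figure D5:**
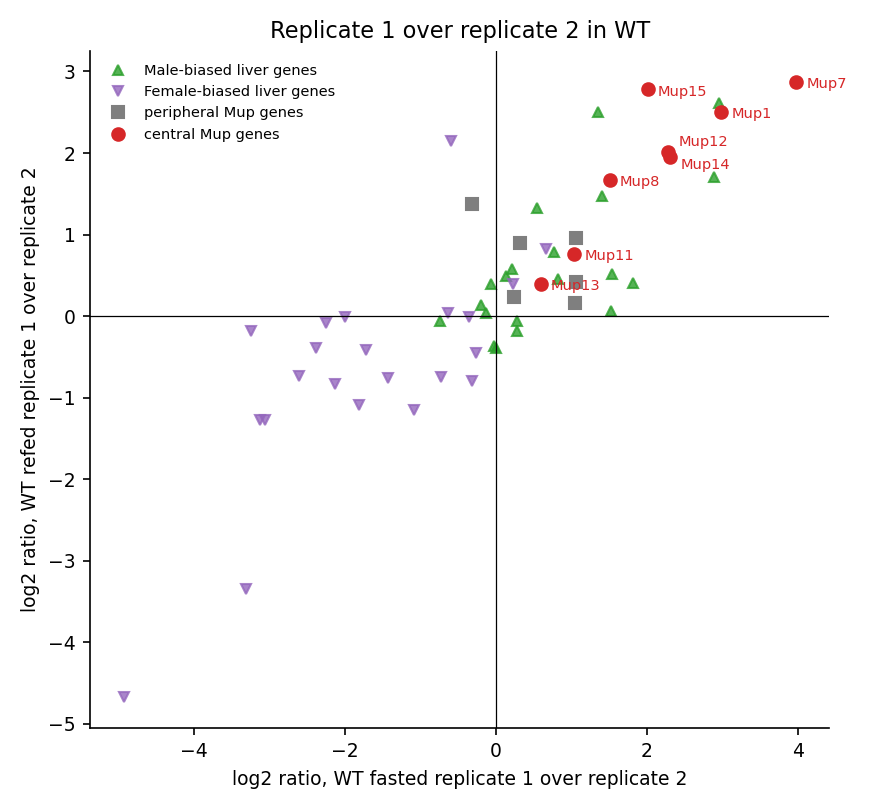
Log2 ratio of replicate 1 to replicate 2 in fasted WT (x axis) and in refed WT (y axis) for the central and peripheral Mup genes and for the lists of male-biased and female-biased liver genes, a symbol for each gene. The 8 central genes lie above 0 on both axes, up to 3.97 and 2.88 for Mup7, and 18 of the 22 female-biased genes lie below 0 on both. Of all 14328 tested genes, which are not drawn, 4079 were above 0 on both and 4136 below 0 on both.

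Genes of the growth hormone pathway and regulators of Mup transcription were read from 1 list of 24 genes, all of them tested. In fasted liver none was called, with a median log2 fold change of -0.33 against -0.02 over all tested genes. In refed liver 4 were lower and 1 was higher in HRD1Alb, with a median of -0.60 against 0.04. Over all tested genes 1.35% were called in either direction in fasted and 11.9% in refed liver, where 4.84% were lower. The list was not tested as a set, and nothing is read from its count. With only the refed samples 0% of all tested genes were called (edgeR), so the refed calls of this list are lost in that fit. Ghr, the growth hormone receptor, was at 525 and 597 CPM in refed WT and at 302 and 277 CPM in refed HRD1Alb liver, a log2 fold change of -0.96 (SE 0.16, adjusted p = 0.0190, edgeR). In fasted liver Ghr was at 350 and 369 against 203 and 240 CPM, which did not pass (adjusted p = 0.0885, edgeR). Onecut1, a liver transcription factor also called HNF6, was lower in refed HRD1Alb liver by a log2 fold change of -1.66 (SE 0.39, adjusted p = 0.0389, edgeR), Esr1, an oestrogen receptor, by -1.75 (SE 0.44, adjusted p = 0.0445, edgeR), and Insr, the insulin receptor, by -1.04 (SE 0.24, adjusted p = 0.0363, edgeR). Cebpb, a C/EBP transcription factor, was higher, with a log2 fold change of 1.22 (SE 0.24, adjusted p = 0.0249, edgeR). Jak2, Stat5a, Stat5b and Socs2, the kinase, the transcription factors and a feedback inhibitor of the growth hormone pathway, passed in neither state. Stat5b was at 71.5 and 78.8 CPM in fasted WT and 56.3 and 63.6 CPM in fasted HRD1Alb liver, and at 45.3 and 42.6 against 40.9 and 25.8 CPM after refeeding.

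Other male-biased liver genes, read from a list of 20, were lower in HRD1Alb for 7 genes in fasted and 11 in refed liver, and none was higher. The median log2 fold changes were -2.12 and -2.08. Cyp4a12a, a fatty acid hydroxylase, was at 461 and 161 CPM in fasted WT and at 23.4 and 24.1 CPM in fasted HRD1Alb liver, a log2 fold change of -3.71 (SE 0.46, adjusted p = 0.0232, edgeR). Hsd3b5, a steroid-metabolizing enzyme, was at 99.2 and 103 CPM in refed WT and at 0.389 and 1.97 CPM in refed HRD1Alb liver, with a log2 fold change of -6.45 (SE 0.80, adjusted p = 0.00991, edgeR). Of the 22 tested female-biased genes, 2 were higher in fasted HRD1Alb liver, and in refed liver 4 were higher and 1 was lower. Both fasted calls, also among the 4 refed ones, passed the filter only through HRD1Alb libraries, where these genes were higher. Of the 11 male-biased refed calls, 1 passed it only through the WT libraries, where it was higher. The counts of both lists are therefore a description, and nothing is read from them. Over all tested genes, 1.35% were called in either direction in fasted and 11.9% in refed liver. With only the refed samples 0% of all tested genes were called (edgeR), so no refed call of these lists holds in that fit. These lists were drawn up with results of these data known and are no independent evidence.

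Secreted and lipocalin genes made by the same cells were read beside the family. None of the 12 listed secreted hepatocyte proteins and none of the 10 tested genes on a list of lipocalins outside the family was called in either state. That list also held Fabp1, a fatty acid-binding protein inside the cell and not a lipocalin. Over all tested genes 1.35% were called in either direction in fasted and 11.9% in refed liver. In lists this short, the absence of a call cannot be told apart from those shares. The median log2 fold changes were -0.76 in fasted and -0.28 in refed liver for the secreted proteins and -0.40 and 0.15 for the lipocalin list. Single secreted proteins ran from -1.79 to 0.36 in fasted and from -1.60 to 0.48 in refed liver. The lipocalin list ran from -0.96 to 1.47 and from -0.26, the value of Fabp1, to 1.64. Alb, encoding albumin, had log2 fold changes of -0.69 (SE 0.28) and -0.42 (SE 0.28), and Rbp4, the retinol carrier, of -0.41 (SE 0.28) and 0.17 (SE 0.28). Genes that flank the Mup cluster, the 10 nearest annotated on each side, held 11 tested genes. None was called in fasted liver, and 2 were lower and 2 higher in refed liver, where 11.9% of all tested genes were called. The 2 called higher passed the filter on low counts only through HRD1Alb libraries, where they were higher, so nothing is read from them. The median log2 fold changes were -0.24 and -0.20.

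Markers of liver cell types were read as well. Over all tested genes 1.35% were called in either direction in fasted and 11.9% in refed liver. The 8 hepatocyte markers summed to 118630 to 158790 CPM in the WT and 74281 to 115140 CPM in the HRD1Alb libraries. None was called in fasted liver, and Apob, encoding apolipoprotein B, was lower in refed HRD1Alb liver with a log2 fold change of -1.24 (SE 0.20, adjusted p = 0.0164, edgeR). The 5 Kupffer cell markers present in the files summed to 70.4 to 83.8 CPM in the WT and 172 to 399 CPM in the HRD1Alb libraries, and 4 of them were called higher in refed liver and none in fasted liver. Stellate cell markers summed to 157 to 325 CPM in the WT and 311 to 403 CPM in the HRD1Alb libraries, with 1 of 5 called higher in refed liver. Endothelial markers summed to 83.7 to 99.8 CPM in the WT and 91.3 to 107 CPM in the HRD1Alb libraries, and none was called. Cholangiocyte markers summed to 32.1 to 68.3 CPM in the WT and 29.1 to 52.9 CPM in the HRD1Alb libraries, and lymphocyte markers to 2.12 to 2.91 and 2.91 to 6.31 CPM, with 1 of 5 called higher in refed liver. Of the erythroid markers Alas2 was the single gene tested, at 74.4 to 105 CPM in the WT and 20.0 to 54.7 CPM in the HRD1Alb libraries and not called in either state, and Hba-a1 was at 0 counts in all 8 libraries. With only the refed samples 0% of all tested genes were called (edgeR), so the refed calls of these markers are lost in that fit. The part of the cell make-up in the Mup values was not tested.

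RefSeq promoters (the window around the start site, GRCm38.p6) were matched for 9 members, Mup2, Mup3, Mup4, Mup6, Mup7, Mup11, Mup14, Mup15 and Mup21. On either strand none of the 9 held TTCNNNGAA, the STAT5 motif, which 8.3% of 32851 promoters of this length held. None held TTGCGNAA, a C/EBP motif (0.798% of all promoters), or GTTAAT, part of the HNF1 site (7.1%). TATAAA, the TATA box, was found in Mup4 and Mup6, starting 27 bases before the start site in each, and in 13.6% of all promoters. A missing match says only that these letters do not occur in this window.

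Genes outside the family with the most similar pattern were taken from 8028 genes with a mean of at least 10 CPM, by Pearson's r between log2 CPM and the log2 summed Mup level over the 8 libraries. The highest values were those of Ugt2b36 (0.99), Cyp2d26, C9, Mgst1 and Tmem143 (0.98 each). C9, a component of the complement cascade, was at 431 and 394 CPM in fasted WT, 68.7 and 114 CPM in fasted HRD1Alb, 445 and 390 CPM in refed WT and 77.9 and 130 CPM in refed HRD1Alb liver. The lowest values were those of Col4a2 (-0.99), Tmem43 (-0.97), App (-0.96), Max (-0.96) and Axl (-0.95). Col4a2, encoding a collagen IV chain, was at 23.4 and 29.7 CPM in fasted WT and 69.1 and 59.2 CPM in fasted HRD1Alb liver. These coefficients describe 8 points that share libraries, scaling and 4 groups, and they carry no test.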

How the data were processed

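Liver RNA-seq libraries from 4 groups (fasted and refed WT, fasted and refed HRD1Alb, 2 each) were grouped by their labels. The deposited values are whole-number counts per gene symbol, a file for each library, with no normalization by the authors. The paper's methods name TRIzol extraction, an Illumina NextSeq instrument and ERANGE for counting, whereas the submitters' processing notes name cutadapt, STAR, HTSeq and DESeq2 with mm10. Which of these made the counts, the annotation, strand setting, read length and treatment of reads with several matches are not given in the sources used here.

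The tests used edgeR 4.0.16 (R 4.3.3), with filterByExpr (minimum count 10, minimum total 15), TMM, and a quasi-likelihood fit of group means. P-values were adjusted by Benjamini-Hochberg over all 14328 tested genes. The SE is the absolute log2 fold change over the square root of F. CPM are TMM-scaled. Log CPM used a prior count of 1. Depth was 40210576 to 49117080 counts per library, and 3 counts were taken as the floor. Alternatives were RLE, scaling without the Mup counts, DESeq2 1.42.0, limma-trend 3.58.1, other filters, other subsets of samples, the replicate block, a 2-fold rule, and each library left out. Statistical steps were tested on simulated data.

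Coding sequence, exonic length and positions are from GENCODE M21 (GRCm38), promoters from RefSeq. Named genes are all members, Mup symbols nearest the count limit, and at most 5 genes of each list in list order. Also named are the called genes of the growth hormone pathway and regulator list, Fabp1, and the 5 genes most and the 5 least correlated with the family. The members and lists were chosen with earlier results of these data known.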

Additional observations from a re-analysis of the deposited data

Results flagged for a closer look

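Mup4 went opposite ways with refeeding in the 2 genotypes. Its fasted WT libraries (27 and 13 counts) lay above its refed WT libraries (12 and 10 counts) after scaling, while its refed HRD1Alb libraries (4 and 2 counts) lay above its fasted HRD1Alb libraries (2 and 2 counts). The interaction on the log2 scale was 1.38 (SE 0.96, adjusted p = 0.648, edgeR), which did not pass the threshold, and the HRD1Alb values differ by no more than 2 counts. With 2 libraries in a group, no test for a single deviating library was made.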

How the results depend on the processing

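Under every alternative run, the genotype log2 fold changes of all fitted members stayed below 0 (218 values in fasted liver, from -10.3 to -1.08, and 218 in refed liver, from -10.3 to -0.04), while the number of members called depended on the fit. In fasted liver it was 2 as reported (1.35% of all tested genes called in either direction), 14 with DESeq2 (5.91%), 8 with no filter on low counts (1.79%), 3 with limma-trend (1.81%), 1 with at least 10 counts in every library (9 members tested, 1.42%), 11 with only the samples of the contrast (14.6%), 14 by the 2-fold rule with an unadjusted p under 0.05 (8.35%), and 0 to 13 with a library left out (0% to 21.7%). In refed liver it was 8 as reported (11.9%), 12 with DESeq2 (17.3%), 10 with no filter (9.64%), 9 with limma-trend (12.1%), 5 with at least 10 counts in every library (12.3%), 0 with only the samples of the contrast (0%), 13 by the 2-fold rule (16.2%), and 0 to 10 with a library left out (0.0068% to 52.8%). It was 0 in both refeeding contrasts and in the interaction, and 0 to 1 with a library left out for refeeding in HRD1Alb and for the interaction (51.4% and 33.4% of all tested genes called in the fits with 1). The edgeR fit with a replicate block called 1 member (Mup21) in fasted liver (0.831% of all tested genes) and 8 in refed liver (9.74%). Mup4 was no longer called in fasted liver. In refed liver Mup14 was lost (adjusted p = 0.0550, edgeR) and Mup3 gained (0.0492), and in the other contrasts the count was 0. The counts in this section can include genes that passed the filter only through the WT libraries, and Mup7 and Mup21, known for their fold changes. They are a description, and nothing is read from them. The replicate numbers are not shown to pair the samples: deviations of libraries with the same number correlated with r of 0.016 to 0.179 across genes. The log2 ratio of the summed family ran from -4.11 to -3.15 for genotype in fasted liver and from -4.27 to -1.82 in refed liver with a library left out, from -0.60 to -0.09 for refeeding in WT and from -0.98 to 1.47 for refeeding in HRD1Alb. RLE and scaling without the Mup counts changed no call. Of the refeeding and interaction values of single members, 17 of 218 in WT, 13 of 214 in HRD1Alb and 24 of 204 for the interaction changed sign. Why the counts differ between tools and subsets was not tested. A group left with 1 library was assumed to vary like the other groups, and the interaction has no value with only the samples of the contrast. Depth limits Mup2, Mup4, Mup8, Mup11, Mup13 and Mup15, and sequence shared between copies limits the central genes. The floor of more than 3 counts on replicate ratios was chosen after seeing the data, and without it 6 of 22 female-biased genes passed the 2-fold line, against 0.775% of all tested genes, Cyp2b13 among them on 0 against 1 count.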

Other observations

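Of the 20 Mup symbols in the files, 5 were not members. Mup10 had 14 counts over the 8 libraries, Mup9 had 5 and Mup17 had 3, and Mup16 and Mup19 were at 0 in every library.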
